A study of Mus musculus with 9 samples.

Results

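The genes described here encode the signalling chain between the type I interferon receptor and the nucleus. They were taken by name from the deposited gene counts as 9 genes of 49315: the receptor chains Ifnar1 and Ifnar2, the kinases Jak1 and Tyk2, the signal transducer Stat2, and the interferon regulatory factors Irf1, Irf7, Irf8 and Irf9. All 9 passed the filter on low counts and were among the 18492 genes tested. RNA came from whole brain of wild-type C57BL/6J mice, male by the study's methods, in 2 age groups without treatment: 5 young mice of 3 months and 4 old mice of 33 months. Each library is 1 mouse, and the old replicates are numbered 1, 3, 4 and 5.

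Type I interferons bind a receptor made of IFNAR1 and IFNAR2, which carry the kinases TYK2 and JAK1 on their inner face. The kinases phosphorylate STAT proteins, and STAT2 with a further STAT and IRF9 forms a complex that binds the interferon-stimulated response element of target genes. Among those targets are genes of the pathway itself, IRF7 being a well-known example, and IRF7 in turn drives interferon genes after viral sensing. IRF1 responds to interferon-gamma through gamma-activated sites, and IRF8 is a transcription factor that microglia, the resident macrophages of the brain, need for their development and identity.

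The sequences before the start sites of the 2 genes that passed the test between the ages (Irf7 and Irf9) and of 3 genes with a match to a known interferon motif (Stat2, Irf1 and Irf8) are shown for reference. Each line gives the 250 bases before the first RefSeq start of the gene on GRCm38.p6, read 5′ to 3′ on the strand of the gene, and capitals mark a motif match.
Irf7, chr7:141266425-141266674, minus strand: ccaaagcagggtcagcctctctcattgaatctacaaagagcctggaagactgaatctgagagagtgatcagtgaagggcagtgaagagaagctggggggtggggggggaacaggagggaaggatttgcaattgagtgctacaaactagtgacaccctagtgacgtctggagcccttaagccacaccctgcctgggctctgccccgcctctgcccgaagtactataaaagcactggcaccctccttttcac
Irf9, chr14:55603735-55603984, plus strand: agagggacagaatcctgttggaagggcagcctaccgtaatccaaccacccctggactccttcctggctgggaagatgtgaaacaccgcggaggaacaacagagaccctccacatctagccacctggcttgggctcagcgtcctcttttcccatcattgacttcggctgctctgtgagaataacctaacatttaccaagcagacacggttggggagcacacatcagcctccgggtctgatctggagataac
Stat2, chr10:128270248-128270497, plus strand: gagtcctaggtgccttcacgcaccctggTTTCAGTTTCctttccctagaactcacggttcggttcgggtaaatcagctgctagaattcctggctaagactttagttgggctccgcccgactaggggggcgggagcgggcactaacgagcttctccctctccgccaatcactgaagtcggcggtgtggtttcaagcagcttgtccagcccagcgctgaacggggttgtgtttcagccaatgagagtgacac
Irf1, chr11:53769764-53770013, plus strand: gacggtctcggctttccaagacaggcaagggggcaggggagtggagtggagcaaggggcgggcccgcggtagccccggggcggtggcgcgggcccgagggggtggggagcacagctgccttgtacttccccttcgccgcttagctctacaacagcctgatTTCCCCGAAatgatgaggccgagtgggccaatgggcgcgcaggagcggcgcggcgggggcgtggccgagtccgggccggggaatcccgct
Irf8, chr8:120736108-120736357, plus strand: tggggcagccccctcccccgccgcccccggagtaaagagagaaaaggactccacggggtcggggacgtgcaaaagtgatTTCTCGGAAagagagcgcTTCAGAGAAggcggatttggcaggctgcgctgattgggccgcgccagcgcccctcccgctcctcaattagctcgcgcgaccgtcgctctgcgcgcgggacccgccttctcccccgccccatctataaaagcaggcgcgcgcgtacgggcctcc
The motifs searched were the core of the interferon-stimulated response element, GAAANNGAAA, and the gamma-activated site, TTCNNNGAA, on both strands of windows of 300 bases that run 50 bases past the start, and no matches of the 2 motifs overlapped in these genes. In Stat2 the response element core began at position -222 from the start, on the opposite strand, and no other gene of the set held it. Gamma-activated sites began at -90 in Irf1 and at -171 and -153 in Irf8, and single matches lay at -5 in Ifnar1 and -214 in Ifnar2. The response element core was found in 3.44% and the gamma-activated site in 8.30% of the 32851 RefSeq windows of the same length, so such matches are not rare. Neither string of letters occurred in the windows of Irf7, Irf9, Jak1 and Tyk2, which says only that these letters are not in the windows. The matches are a description of sequence and no binding was measured.

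Levels are given in CPM (counts scaled to the TMM-normalised library size), with the raw counts where they matter, and the libraries held 14229259 to 21150439 counts. Old and young were compared with the quasi-likelihood test of edgeR over all 18492 genes, and p-values were adjusted by Benjamini-Hochberg. A gene passed the test at an adjusted p below 0.05 and was called when its log2 fold change (old over young) was also beyond 0.58. Neuron, astrocyte and oligodendrocyte markers were abundant in every library, as whole brain would give (summed levels of 6160 to 6800, 4280 to 4650 and 6270 to 8410 CPM). Young replicate 4 stood apart from the other young libraries: its mean log2 CPM of 12 disease-associated microglia markers was 4.15 against 2.30 to 2.47 in the other 4, and 3.67 to 4.06 in the old. Old replicate 4 stood apart in blood-cell markers, with 83.0 CPM summed over 6 neutrophil genes against 2.54 to 5.74 in the other old libraries. Results that lean on young replicate 4 are therefore given with and without it.

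Irf7 and Irf9 rose with age, and none of the other 7 genes passed the test at either sign with all libraries in the fit. Without young replicate 4, which is described above, 4 of the 9 passed, Irf1 and Irf8 being the others. In that fit 2034 of the 18132 genes tested passed. Irf7 was 4.16-fold higher in old brain and Irf9 was 1.28-fold higher, and in both every old library lay above every young library. With all libraries in the fit, the shares to read this against are those of all genes tested. Of these 11.0% passed the test, 6.09% with a higher and 4.89% with a lower level in old brain, against 2 higher of 9 here (22.2%). Past the fold threshold as well were 2.50% of all genes, or 2.13% counting those higher in old brain, and 1 of 9 here, Irf7. Ranges that did not overlap were seen in 12.6% of all genes, with old above young in 6.50%, and in the same 2 of the 9. The log2 fold change was above 0 in 7 of 9 genes against 50.0% of all genes, and the median over the 9 was 0.18 where the median of all genes was 0. In bulk tissue, fewer cells of a type and less RNA per cell cannot be told apart, and this holds for every difference below.

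**Figure D1:**
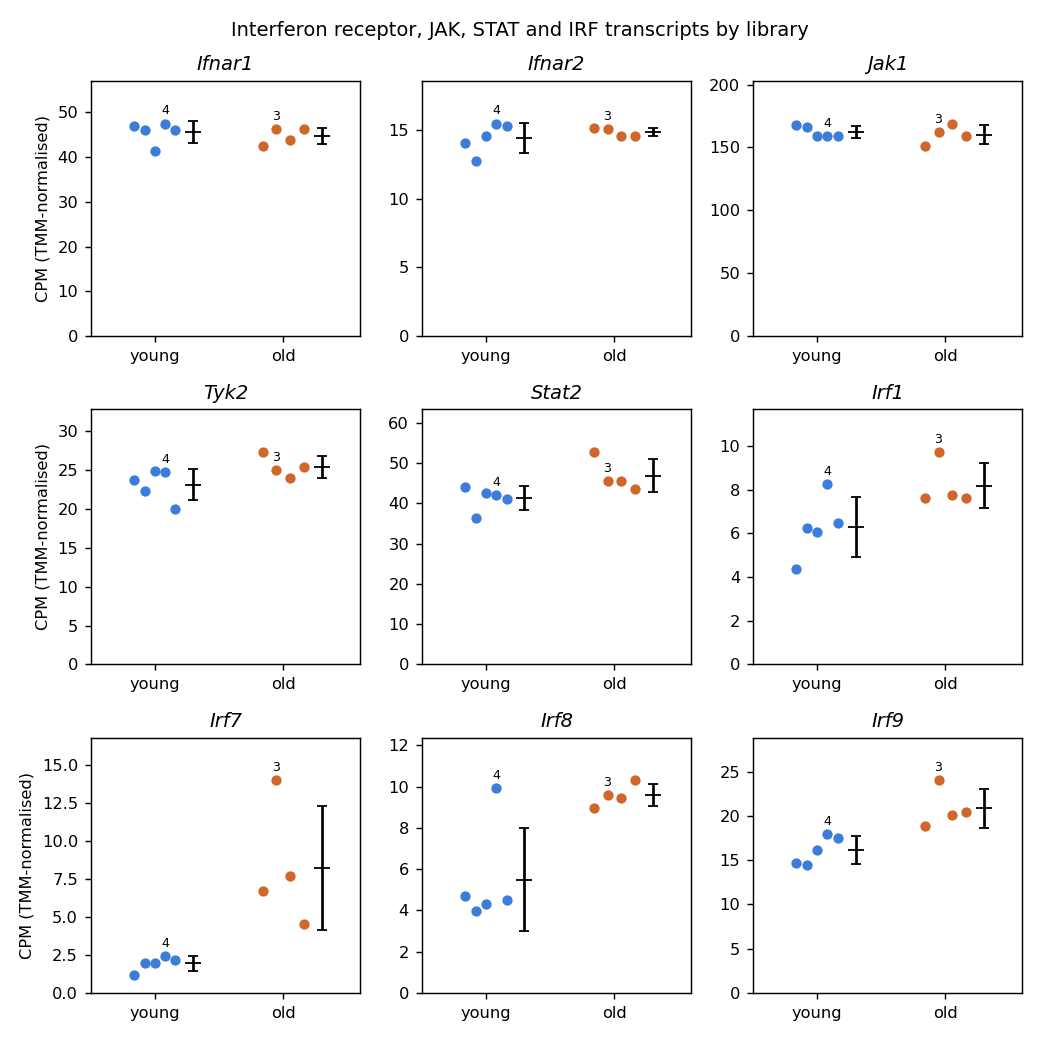
CPM (linear axis from 0) of each gene in the 5 young (blue) and 4 old (orange) libraries, 1 point per mouse, with the group mean and SD as black bars; young replicate 4 and old replicate 3 are numbered. Irf7 and Irf9 separate the ages, while for Irf8 young replicate 4 sits at 9.95 CPM among the old libraries at 8.98 to 10.3 CPM.

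Both receptor chains had similar levels at the 2 ages. Ifnar1, the low-affinity chain that holds TYK2, lies at chr16:91485238-91507441 (GRCm38, plus strand). It was read at 46.9, 46.1, 41.4, 47.5 and 46.0 CPM in young replicates 1 to 5 and at 42.5, 46.2, 43.9 and 46.3 CPM in old replicates 1, 3, 4 and 5. The ranges overlapped over most of their width and the lowest library was young replicate 3. The log2 fold change was -0.03 ± 0.05 (SE), with a 95% interval from -0.14 to 0.08 and an adjusted p of 0.749 (edgeR).

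Ifnar2, the high-affinity chain that holds JAK1, lies on the same strand of chromosome 16, at chr16:91372783-91405589. Its level was 14.1, 12.8, 14.6, 15.5 and 15.3 CPM in the young and 15.2, 15.1, 14.6 and 14.6 CPM in the old libraries. The old libraries fell inside the young range. The log2 fold change was 0.04 ± 0.07 (SE; 95% interval -0.11 to 0.19; adjusted p = 0.778, edgeR). Ifnar2 shares 315 exonic bases with the same-strand model Gm21970, and reads there may be split or discarded between the models.

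The receptor-bound kinases were also close between the ages. Jak1 (chr4:101152367-101265282, minus strand), which serves many cytokine receptors besides this one, was the most abundant of the 9. It was read at 168, 166, 159, 159 and 159 CPM in young and 151, 162, 169 and 159 CPM in old brain. The highest and the lowest library were both old. Its log2 fold change of -0.02 ± 0.04 (SE) had the narrowest 95% interval of the set, from -0.10 to 0.06, with an adjusted p of 0.816 (edgeR).

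Tyk2 (chr9:21104068-21131243, minus strand), the partner kinase, was read at 23.7, 22.3, 24.8, 24.7 and 20.0 CPM in young and 27.3, 25.0, 23.9 and 25.4 CPM in old libraries. All old libraries but replicate 4 were above all young ones, and replicate 4 was within the young range. The log2 fold change was 0.13 ± 0.07 (SE; 95% interval -0.01 to 0.28; adjusted p = 0.227, edgeR). The model 1700084C06Rik overlaps 554 exonic bases of Tyk2 on the opposite strand, and whether the counting used strand is not given for these libraries in the sources used here.

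Stat2 (chr10:128270559-128292849, plus strand) encodes the STAT protein particular to the type I and type III interferon receptors, and its own transcript is known to be induced by interferon. It was read at 44.2, 36.5, 42.7, 42.2 and 41.1 CPM in young and 52.8, 45.7, 45.5 and 43.5 CPM in old brain. Old replicate 1 was the highest and old replicate 5 lay below young replicate 1, so the ranges overlapped by 1 library. The log2 fold change was 0.18 ± 0.06 (SE; 95% interval 0.05 to 0.32), and with an adjusted p of 0.071 (edgeR) Stat2 did not pass. Without old replicate 1 the value was 0.12 (adjusted p = 0.223), and without old replicate 5 it was 0.22 (adjusted p = 0.0545).

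Irf9, the DNA-binding partner of STAT2 in the interferon-stimulated complex, lies at chr14:55603571-55610030 (plus strand). Its counts were 281, 263, 235, 373 and 284 in the young and 356, 340, 367 and 348 in the old libraries. This corresponds to 14.7, 14.5, 16.1, 18.0 and 17.5 CPM in young (mean 16.2 ± 1.59, SD, n = 5) and 18.9, 24.0, 20.1 and 20.4 CPM in old brain (mean 20.8 ± 2.18, SD, n = 4). The ranges did not overlap, but old replicate 1 was only just above young replicate 4, and old replicate 3 was the highest. Irf9 rose by 0.36 on the log2 scale, with an SE of 0.08 (95% interval 0.18 to 0.54; adjusted p = 0.00981, edgeR), short of the fold threshold. It passed with any 1 library left out (0.29 to 0.41, adjusted p 0.00517 to 0.0365, edgeR). On the deposited TPM Irf9 did not pass (0.18, adjusted p = 0.597, limma on log2(TPM + 1)), where the median over all genes was -0.14. Irf9 shares 123 exonic bases with Rnf31 on the same strand.

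Irf7 (chr7:141262706-141266481, minus strand), the interferon-induced factor that carries interferon gene transcription forward, had the widest difference of the 9 and, relative to its mean, the widest spread in old brain. Its counts were 22, 36, 29, 51 and 35 in the young and 126, 199, 141 and 77 in the old libraries. In CPM these were 1.15, 1.99, 1.99, 2.46 and 2.16 (mean 1.95 ± 0.488, SD, n = 5) and 6.69, 14.0, 7.71 and 4.52 (mean 8.24 ± 4.09, SD, n = 4). The lowest old library was above the highest young one, and within the old group replicate 3 was highest and replicate 5 lowest. Irf7 rose by a log2 fold change of 2.06 ± 0.35 (SE; 95% interval 1.28 to 2.84; adjusted p = 0.00603, edgeR).

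The rise of Irf7 was past both thresholds in all 18 alternatives tried for it, at 1.29 to 2.26, and with single libraries left out it was 1.69 to 2.26. The SD of Irf7 was 49.6% of its mean in old and 25.0% in young brain. The interferon target genes had the same library on top: the mean log2 CPM of 24 targets of the STAT and IRF9 complex was 2.54, 3.07, 2.76 and 2.64 in old replicates 1, 3, 4 and 5 and 1.40 to 1.79 in the young. Blood-cell markers moved with age as well: 3 of 5 erythroid genes rose, with summed levels of 86.1 to 116 CPM in young and 128 to 409 CPM in old brain, and neutrophil genes summed to 0.941 to 1.91 CPM in young and 2.54 to 83.0 CPM in old brain. Old replicate 3 had the lowest value of the old libraries in both lists and was above every young library in both. The part of blood cells in the Irf7 values was not tested.

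Irf1 (chr11:53770014-53778374, plus strand), the factor that relays interferon-gamma to genes of antigen presentation, was read at 4.39, 6.25, 6.05, 8.26 and 6.49 CPM in the young and 7.60, 9.73, 7.77 and 7.63 CPM in the old libraries. Young replicate 4 was above 3 of the 4 old libraries, and the other young libraries were below them all. The log2 fold change was 0.37 ± 0.15 (SE; 95% interval 0.06 to 0.68), and the adjusted p of 0.117 (edgeR) missed the threshold. The model Gm17334 shares 135 exonic bases with Irf1 on the opposite strand. Without young replicate 4 it was 0.50 with an adjusted p of 0.0226, and without any other single library it was 0.26 to 0.41 and did not pass.

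**Figure D2:**
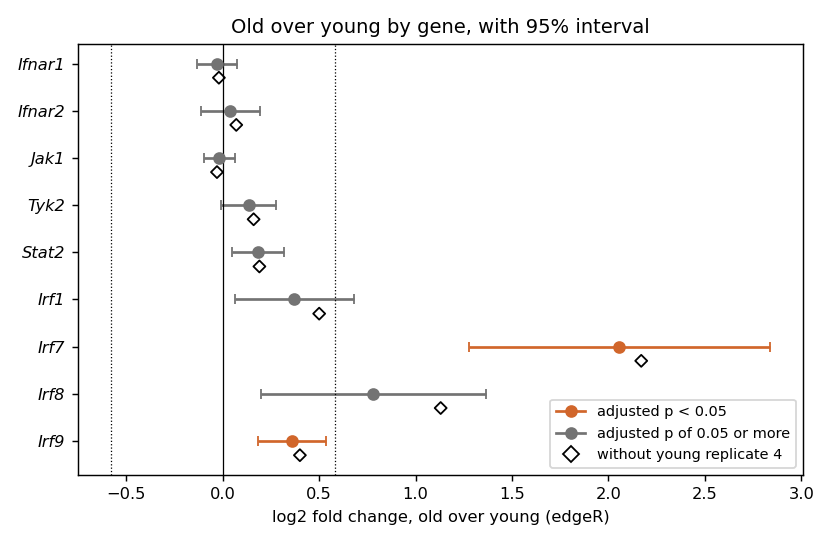
Log2 fold change of old over young (edgeR) for each gene with its 95% interval, orange where the adjusted p was below 0.05; open diamonds give the value without young replicate 4, and dotted lines the fold threshold of 0.58 in either direction. Irf7 stands at 2.06, and leaving out young replicate 4 moves Irf8 from 0.78 to 1.13 while the receptor and kinase genes stay near 0.

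Irf8 (chr8:120736358-120756694, plus strand) turned on 1 library. It was read at 4.70, 3.98, 4.33, 9.95 and 4.51 CPM in young (mean 5.5 ± 2.5, SD, n = 5) and at 8.98, 9.59, 9.47 and 10.3 CPM in old brain (mean 9.59 ± 0.560, SD, n = 4). Young replicate 4 was inside the old range and the other 4 young libraries were all under 5 CPM. Over all libraries the log2 fold change was 0.78 ± 0.26 (SE; 95% interval 0.20 to 1.36; adjusted p = 0.0898, edgeR), which did not pass. Without young replicate 4 it was 1.13 with an adjusted p of 3.35e-06 (edgeR), past both thresholds. That library was singled out by high microglia markers in these same data, so this p is not independent support. Without any other single library Irf8 was at 0.68 to 0.82 and did not pass (adjusted p 0.147 to 0.185, edgeR). The DESeq2 Wald test on all libraries gave 0.79 with an adjusted p of 0.00521, so the tools differed on this gene.

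Microglia markers were therefore read beside Irf8. The summed level of 12 homeostatic microglia markers was 263 to 296 CPM in 4 young libraries, 363 CPM in young replicate 4 and 347 to 407 CPM in the old, and 2 of the 12 passed the test, both higher in old brain. None of the 12 was at 0 in any library. Per library, log2 CPM of Irf8 minus the mean log2 CPM of these markers was -1.87, -2.18, -1.96, -1.05 and -1.83 in young and -1.19, -1.17, -1.11 and -1.20 in old brain. Young replicate 4 was the highest of all 9, and the other young libraries were all below the old. The mean was -1.78 ± 0.43 (SD, n = 5) in young and -1.17 ± 0.04 (SD, n = 4) in old, a difference of 0.61 (two-sided exact permutation test over 126 splits, p = 0.0476, where the smallest possible is 0.00794).

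That difference depended on the scale and on the reference chosen. It was 0.41 on the TPM scale (exact p = 0.0635). Set against the disease-associated microglia markers it had the other sign, -0.24 (exact p = 0.183). Of these disease-associated genes 2 of 12 passed the test, both higher with age, and the median over the list was a log2 fold change of 0.61, or 0.92 without young replicate 4. Border macrophage markers moved with age as well, 3 of 7 rising, with a summed level of 9.18 to 11.2 CPM in young and 13.3 to 21.4 CPM in old brain. None of these macrophage markers but Ms4a7 was at 0 in a library, and of the disease-associated markers only the chemokines Ccl3 and Ccl4 were, each in young libraries alone. Markers of B and plasma cells, in which Irf8 is also expressed, summed to 1.30 to 1.72 CPM in young and 1.83 to 15.9 CPM in old brain, with the B-cell marker Ms4a1 at 0 in libraries of both ages. The part of these cells in the Irf8 values was not tested.

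**Figure D3:**
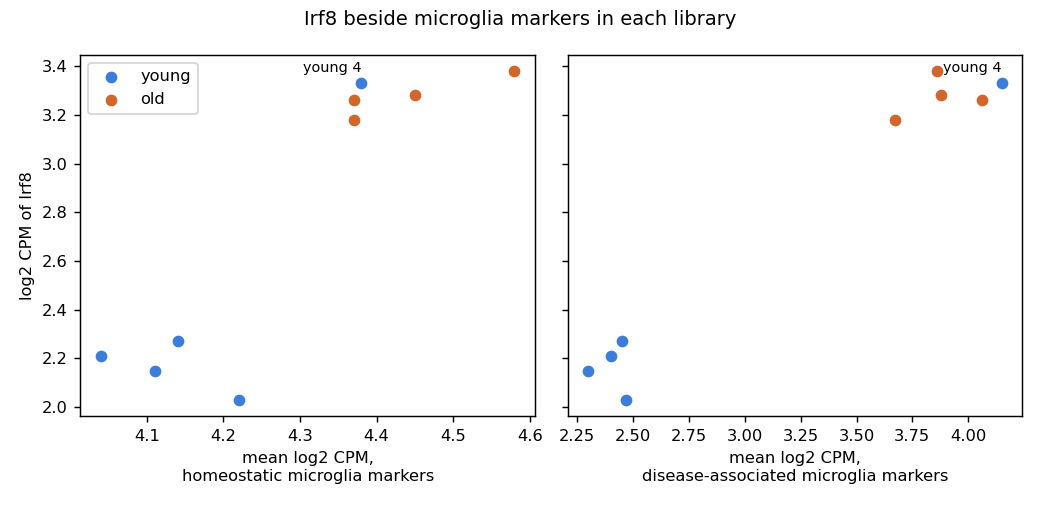
Log2 CPM of Irf8 in each library against the mean log2 CPM of the homeostatic (left) and disease-associated (right) microglia markers; 1 point per library, young in blue and old in orange. In both panels young replicate 4 lies with the old libraries, at 3.33 for Irf8 and 4.15 for the disease-associated markers.

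Between genes, levels were compared per kb of exon (CPM per kb of merged annotated exons). In young brain the order was Jak1 at 22.4, Ifnar1 at 7.67, Stat2 at 6.98, Ifnar2 at 4.35, Tyk2 at 3.37, Irf9 at 3.01, Irf1 at 1.58, Irf8 at 0.779 and Irf7 at 0.517 CPM per kb. The ranges over the libraries overlapped between Ifnar1 and Stat2, Tyk2 and Irf9, Irf1 and Irf8, and Irf8 and Irf7. The order within these pairs is not claimed. On the deposited TPM, Stat2 was above Ifnar1 in every library, at 20.9 to 33.1 against 17.6 to 24.0 in young brain. In old brain Jak1 (22.2) again stood alone, and Stat2 (7.91) and Ifnar1 (7.53) overlapped. Neighbours also overlapped from Ifnar2 (4.47) through Irf9 (3.87), Tyk2 (3.70) and Irf7 (2.18) to Irf1 (2.06). Irf8 had the lowest mean, 1.36 CPM per kb, and its range was separate from that of Irf1. In old replicate 5, however, Irf7 was below Irf8 on the deposited TPM, at 2.91 against 3.56. The order of Irf7 and Irf8 in old brain is not claimed. The per-kb level of Irf7 is a low estimate, since its annotated exons, retained introns included, form 1 block of 3776 bases. That of Irf9 may be low as well, with merged exons of 5386 bases within chr14:55603571-55610030.

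Which of the other listed pathway and marker genes varied most like each gene was read from log2 CPM after the mean of each age was subtracted, over 9 libraries and 145 genes. These correlations describe libraries that share depth and composition, and carry no p. Irf7 was most like Gbp5 (r = 0.90, and 0.81 without old replicate 3) and Dhx58 (r = 0.85, and 0.75). Irf9 was most like Ifih1 (r = 0.91) and Ifit3b (r = 0.88), and Irf1 most like Oasl2 (r = 0.93) and the inhibitor Usp18 (r = 0.87). For Irf8 they were the disease-associated microglia markers Clec7a and Itgax (r = 0.97 each), and without young replicate 4 the values were 0.02 and 0.39. Among the upstream genes, Ifnar1 was most like Gbp2 (r = 0.84) and Ciita (0.78), and Ifnar2 like Nlrc5 (r = 0.90) and Xaf1 (0.80). Stat2 was most like Tbkbp1 (r = 0.81) and Chuk (0.71), Tyk2 like Stat5a (r = 0.76) and Lpl (0.68), and Jak1 like Isg15 (r = 0.61) and Mog (0.59).

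The ligands of the pathway were at the floor of detection in these counts. Of 21 interferon genes, 16 had no count in any library, Ifnb1 included, and the other 5 held 16 counts together over all libraries. The most, 8, belonged to Ifnk, the keratinocyte interferon, while Ifng had 1 count. A gene without counts among 157354609 allows a level of up to 0.0191 CPM (3 counts over all libraries, counting error only). Only uniquely mapped reads were counted, so reads that match several similar interferon genes would be missing. The bound does not cover such reads. The 16 genes without a count thus gave no uniquely mapped read at this depth. The 5 others were seen at very low counts, and none of the 21 was tested.

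The remaining genes of the signalling chain moved less than Irf7. Among the other receptor chains, Ifngr1, the ligand-binding chain for interferon-gamma, rose by 0.35 (log2 fold change, adjusted p = 0.0209, edgeR) and its partner Ifngr2 fell by 0.22 (adjusted p = 0.0198), and the other 2 of 4 did not pass. Both other JAK kinases rose, Jak2 by 0.27 (adjusted p = 0.00655) and the leukocyte kinase Jak3 by 0.34 (adjusted p = 0.0418). Of 4 other STAT genes tested, Stat3, the interleukin-6 family transducer, rose by 0.43 (adjusted p = 0.000204) and Stat6 by 0.39 (adjusted p = 0.00152). None of these 6 reached the fold threshold.

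The other IRF genes gave no pass in 5. Irf2, which competes with IRF1 for its sites, was at a log2 difference of 0.20 (adjusted p = 0.0526, edgeR) and Irf5, a myeloid factor, 0.52 (adjusted p = 0.0542). Irf3, a constitutively expressed factor that is activated downstream of viral RNA sensors, had 0.05. Of 13 adaptors and kinases that activate IRF proteins, Irak1 rose by 0.20 (adjusted p = 0.00731) and Traf3 fell by 0.20 (adjusted p = 0.0136), and the median was 0.07, with the IRF kinase Tbk1 at 0.07.

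Among 16 feedback inhibitors 5 rose and none fell, with a median of 0.07. Usp18, which binds IFNAR2 and damps the receptor, rose by 1.42 on the log2 scale (adjusted p = 0.000317, edgeR), from 1.38 ± 0.408 CPM (SD, n = 5) to 3.70 ± 0.365 CPM (SD, n = 4). Socs3, an inhibitor of JAK kinases, rose by 0.72 (adjusted p = 0.0038), and both passed the fold threshold. Its relative Socs1, which inhibits JAK1 and TYK2 signalling, had 0.02. The phosphatases Ptpn1 and Ptpn11 and the ligase Pias1 were the other 3 that rose, by 0.26, 0.23 and 0.13.

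**Figure D4:**
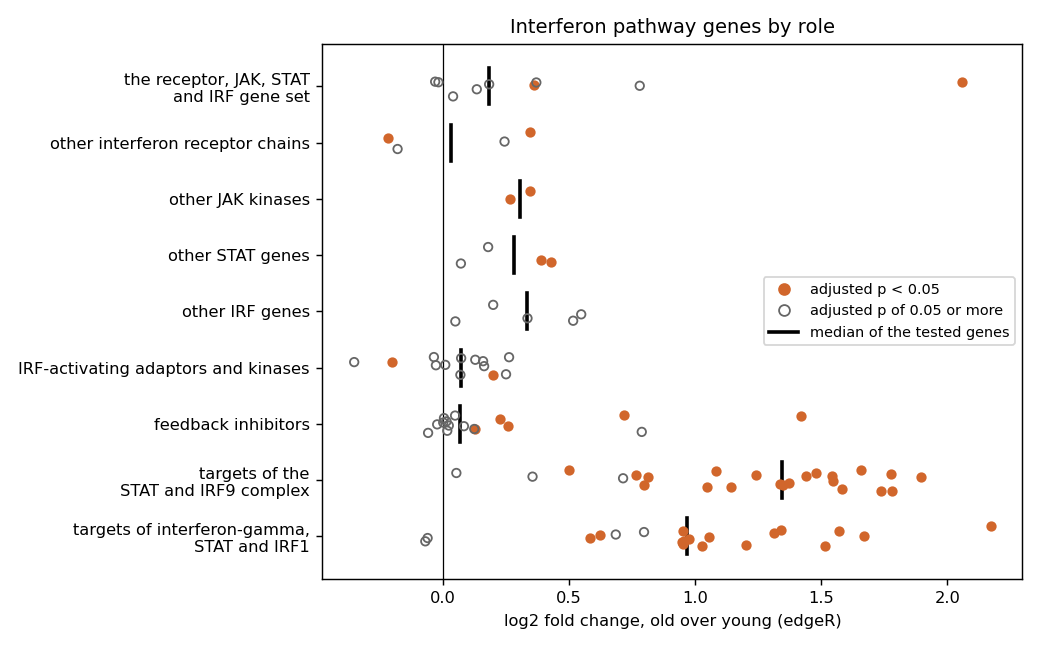
Log2 fold change of old over young (edgeR) of every tested gene by role in the interferon pathway, filled where the adjusted p was below 0.05, with a black bar at the median of each row. The medians of the receptor, kinase, STAT, IRF, adaptor and inhibitor rows lie between 0.03 and 0.34, and those of the 2 rows of target genes at 1.34 and 0.97.

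The target genes at the end of the chain lay furthest from 0. Of 24 tested targets of the STAT and IRF9 complex 21 rose and none fell, with a median log2 fold change of 1.34, and the 3 with the smallest p were Ifi27 (0.81, adjusted p = 5.71e-07, edgeR), Bst2 (1.58, adjusted p = 6.55e-06) and Ifit3b (1.34, adjusted p = 1.73e-05). Of 20 tested targets of interferon-gamma, STAT and IRF1 16 rose and none fell, with a median of 0.97, or 1.10 without young replicate 4. The 3 with the smallest p there were the GTPases Irgm1 (1.05, adjusted p = 1.26e-06) and Gbp6 (1.51, adjusted p = 6.8e-05) and the immunoproteasome subunit Psmb8 (1.31, adjusted p = 0.000213). The 2 lists were chosen with earlier results of these data known, so their direction is not independent evidence. Other cell-type markers moved with age beside these lists, to be read against the 11.0% of all genes that passed. Of the endothelial markers 4 of 8 rose, with summed levels of 249 to 265 CPM in young and 284 to 326 CPM in old brain. The erythroid, microglia and border macrophage markers are given above, with 2 of 12 passing in each microglia list. Among 9 neuron markers 2 passed, both lower in old brain. Among 8 oligodendrocyte markers 2 passed as higher and 1 as lower, and of 9 astrocyte markers none passed. T-cell markers summed to 9.82 to 13.1 CPM in young and 10.3 to 11.9 CPM in old brain. Most of that sum was Cd4, Trbc2 and Trac, which had log2 fold changes of -0.13, -0.31 and -0.23 and did not pass. The other 6 of 9 had too few counts to be tested. Cd8a held 0 to 3 counts in a young and 5 to 16 in an old library. In the same order Cd8b1 held 0 to 2 and 2 to 7, and Cd3d 0 to 2 and 2 to 5. For Cd3g the counts were 0 to 1 and 2 to 4, and for Nkg7 0 to 2 and 1 to 8. Cd3e held 1 to 7 and 2 to 6. Of the neutrophil genes none of the 3 tested passed. The part of these cells in the target genes was not tested. The difference in size between the targets and the receptor, kinase and STAT2 transcripts is given as values and was not tested.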

How the data were processed

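RNA was extracted from whole brain with Qiazol, and polyA-selected libraries with ERCC spike-in were sequenced as paired reads. By the study's methods the authors trimmed reads with Trimmomatic, aligned them to GRCm38 with STAR and counted uniquely mapped exon reads per gene with featureCounts; the deposited table of raw counts was the input here. The authors also deposited counts scaled by DESeq2 size factors (a normalised signal) and TPM, used only as alternatives. Of each table, 1 further per-sample column, headed as an old library, matches no sample label and was not used. The paper gives the same number of mice at each age for its transcriptome. Columns of comparisons were not used.

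Genes with too few counts were removed with filterByExpr (minimum count 10, minimum total 15), libraries were scaled by TMM, and old was compared with young by the robust quasi-likelihood test of edgeR 4.0.16 in R 4.3.3, with Benjamini-Hochberg adjustment over 18492 genes. On data simulated for old versus young over 18238 genes, edgeR called 99.5% of 200 changed genes and 6.57% of its calls were false. The changed genes had log2 CPM above 1 and were given a log2 change of 1 in either direction. Every gene of the set but Irf7 differed by less, so this share does not describe the power to detect changes of their size. The biological coefficient of variation was 6.71%. Replicates of a group differed by more than counting noise (chi-square per degree of freedom at least 4.73), and each library was counted once. Separate animals are taken from the labels' replicate numbers; where nothing else is stated, p-values measure the spread between these libraries. Alternatives were DESeq2 1.42.0, limma 3.58.1 on log2(TPM + 1), log2(TPM + 0.1) and log2(normalised counts + 1), other size factors, no filter, other thresholds, a replicate block and single libraries left out; leaving out 2 libraries together was added after the data were seen. Log2 CPM used a prior count of 2.

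Symbols came from GENCODE M21 gene IDs (48970 of 49315 matched); coordinates are on GRCm38 and promoter sequences from RefSeq on GRCm38.p6, with 12 windows for the 9 genes. The 9 genes, the gene lists and the tests were chosen with earlier results of these data known. All 9 genes were named; list genes were named by role, by the 3 smallest p-values in the target lists, and by the 2 highest correlations with each of the 9.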

Additional observations from a re-analysis of the deposited data

Results flagged for a closer look

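Of the values examined, 6 lay far from the rest of their own age group by Dixon's criterion at the 95% level. Chance gives about 1 in 20 groups, or 2.9 of the 58 groups examined. In young replicate 4, log2 CPM of Irf8 was 3.33 against 2.03 to 2.27 in the other young libraries. The same library had a mean log2 CPM of 4.15 for the disease-associated microglia markers against 2.30 to 2.47, and of 1.31 for the targets of interferon-gamma, STAT and IRF1 against 0.97 to 1.04. In old replicate 3, log2 CPM of Irf1 was 3.30 against 2.95 to 2.98 in the other old libraries. In young replicate 1, Irf7 was lowest, at 0.34 against 1.07 to 1.37, a value that rests on 22 counts. In young replicate 3, Ifnar1 was lowest, at 5.37 against 5.53 to 5.57. No cause of these values was tested.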

How the results depend on the processing

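Of the 9 genes 1 was called, and 2 were called with DESeq2, with limma on log2(normalised counts + 1), with an adjusted p below 0.05 alone, and with young replicate 4 and old replicate 3 both left out (chosen after seeing the data); with single libraries left out the number was 1 to 2. Of all genes 463 were called, against 707 with no filter, 2031 by adjusted p alone and 256 at an adjusted p below 0.01, and 379 to 592 with single libraries left out. Calls split into 394 higher and 69 lower, and on log2(TPM + 1) into 182 and 144, where the median of all genes shifted by -0.14 (-0.16 on log2(TPM + 0.1), split into 249 and 232). Relative to that shift, Ifnar2 (-0.11 and -0.12) and Tyk2 (-0.03 on both) were above the median gene, though of opposite sign to the values on counts. Jak1 was -0.04 to 0.01 with single libraries left out, 0.01 without old replicate 1. None of these 3 genes passed in any of these fits. Stat2 and Irf1 passed the adjusted p with no filter (0.17, adjusted p = 0.0208, and 0.36, adjusted p = 0.0325). Irf8 passed with limma on normalised counts (0.88, adjusted p = 0.0373) and with both libraries left out (1.13).

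The difference of Irf8 relative to the homeostatic markers (0.61) was 0.41 on TPM and -0.24 against disease-associated markers, and 0.51 to 0.79 with single libraries left out, where 8 of 9 exact p-values (0.0286 to 0.143 in all) missed the threshold. The replicate numbers do not pair the libraries: same-numbered libraries had correlations of deviations of 0.17, -0.12, 0.09 and -0.02 for numbers 1, 3, 4 and 5. With a replicate block 437 genes were called, Ifnar2 was -0.000619, and the Irf8 difference was 0.51 over 4 pairs (exact p = 0.25, where 4 pairs cannot go below 0.125). Depth limits Irf7 most, at 22 to 51 counts in young libraries.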
